A study of Mus musculus and Rattus norvegicus with 12 samples.

Results

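Histone genes were examined in rRNA-depleted total RNA of 8 mouse cell lines. The set comprised every row of the mouse count tables whose symbol begins with Hist1h, Hist2h, Hist3h or Hist4h, together with H1f0, H1fx, H2afz, H2afx, H2afy and H3f3b. It held 74 genes of 24411 in the tables, of which 68 carry Hist symbols and 6 were named by symbol. By symbol, 6 of the Hist genes belong to linker histone H1, 18 to H2A, 19 to H2B (including the pseudogene Hist3h2bb-ps), 12 to H3 and 13 to H4. Members passing the filter on low counts numbered 60, 55 of them Hist genes.

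Compared were 3 pXEN lines (numbered 2, 4 and 6), 3 XEN lines (1, 2 and 5) and 2 ES lines (2 and 3), all of the ICR strain and each derived independently, and values of a group are given in the order of these numbers. The tests thus set each difference between groups against the spread between lines. That spread was estimated over the 3 groups together, with only 2 lines in the ES group. XEN cells are extraembryonic endoderm stem cells, and the labels name the pXEN lines only by that term and by their culture, which was that used for rat XENP cells. XEN lines were grown over mouse embryo fibroblast feeders with serum, and ES (embryonic stem) lines with serum, LIF and 2i. All were sampled after 2 days of culture, at passages 17 to 21 for pXEN, 9 to 21 for XEN and 14 to 16 for ES. The pXEN2, XEN2, XEN5 and ES2 lines were male and the other lines female. Cell type and culture differed together, so their parts in any difference cannot be told apart.

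Histones package DNA: H2A, H2B, H3 and H4 form the nucleosome core, and H1 binds the linker DNA between cores. Most Hist genes are replication-dependent, transcribed mainly in S phase from clusters of short genes without introns, and their mRNAs end in a conserved stem-loop in place of a poly(A) tail. Replacement histones such as H1f0, H2afz and H3f3b are made throughout the cell cycle from polyadenylated mRNAs. Libraries of total RNA can hold both kinds of message, whereas poly(A) selection removes most of the first.

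The stem-loop is shown because it marks the messages that this type of library retains. The letters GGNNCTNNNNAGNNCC were searched on the sense strand in the first 100 bases after the stop codon of GENCODE vM21 transcripts. Of 52 Hist genes with at least 30 annotated bases after the stop codon, 46 held the motif, 22 to 59 bases downstream of it. Among the 6 members named by symbol, H2afx alone held it, and 151 of 47277 transcripts of other genes (0.319%) did. The core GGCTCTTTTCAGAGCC was the commonest form, found in 26 members. Capitals mark the motif in these 26-base windows, taken from 5 members described further on.
Hist1h1c: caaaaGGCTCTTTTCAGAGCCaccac
Hist1h3d: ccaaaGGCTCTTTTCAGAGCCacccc
Hist1h2bf: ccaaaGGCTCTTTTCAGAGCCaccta
Hist1h4j: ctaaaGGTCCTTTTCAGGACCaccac
H2afx: acaaaGGCCCTTTTAAGGGCCaccac
The first 3 sequences share one core, while Hist1h4j and H2afx have other letters in the stem, and H2afx also in the loop. A match to these letters is a description of the annotated sequence.

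Gene counts on the sequenced strand totalled 2661691 to 3483069 per line, of which the ribosomal RNA precursor Rn45s took 20.7% to 50.1%. The Hist genes received 17896 to 31555 counts per line. As a check of the labels, all 8 endoderm markers tested were higher in both endoderm groups than in ES lines, and all 6 ES markers were lower; Zfp42 and Pou5f1 were nevertheless higher in pXEN than in XEN lines. Fibroblast markers were present in XEN libraries, where feeder cells were used: the 12 markers summed to 3.44 to 12.0 CPM in pXEN lines, 212 to 276 CPM in XEN lines and 9.46 to 10.1 CPM in ES lines. Of these 12, 8 had 0 counts in every pXEN line, none was at 0 over the XEN lines and 6 had 0 counts in both ES lines. Their part in the differences of XEN lines given here was not tested. Of 6 trophoblast markers, Eomes alone was tested, and they summed to at most 2.30 CPM in pXEN lines, 2.73 CPM in XEN lines and 21.8 CPM in ES lines. CPM denotes counts scaled to a common library size (TMM).

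The summed level of the 68 Hist genes was lower in both endoderm groups than in ES lines. It reached 7118, 7388 and 8067 CPM in pXEN lines, 6974, 8773 and 5760 CPM in XEN lines, and 10039 and 9580 CPM in ES lines. Both ES lines stood above all 6 endoderm lines, and the pXEN values lay within the range of the XEN values. The mean in pXEN lines was 0.767 times that in ES lines, the mean in XEN lines 0.731 times that in ES lines, and the mean in pXEN lines 1.05 times that in XEN lines. These sums carry no test. In bulk RNA a smaller number of cells in S phase and less histone mRNA per cell cannot be told apart.

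Each core class summed to less in every pXEN line than in either ES line. The ratio of pXEN to ES means was 0.698 for H2A, 0.772 for H2B, 0.763 for H3 and 0.701 for H4. H1 differed from the core classes in overlapping between pXEN and ES lines, with a ratio of 0.903. With upper-quartile scaling all 5 ratios were lower still, at 0.648 to 0.840. XEN lines varied more than the other groups: H2B summed to 2134, 2050 and 2270 CPM in pXEN lines, 1655, 2652 and 1461 CPM in XEN lines, and 2785 and 2787 CPM in ES lines. XEN2 was the highest and XEN5 the lowest XEN line in all 5 classes.

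**Figure D1:**
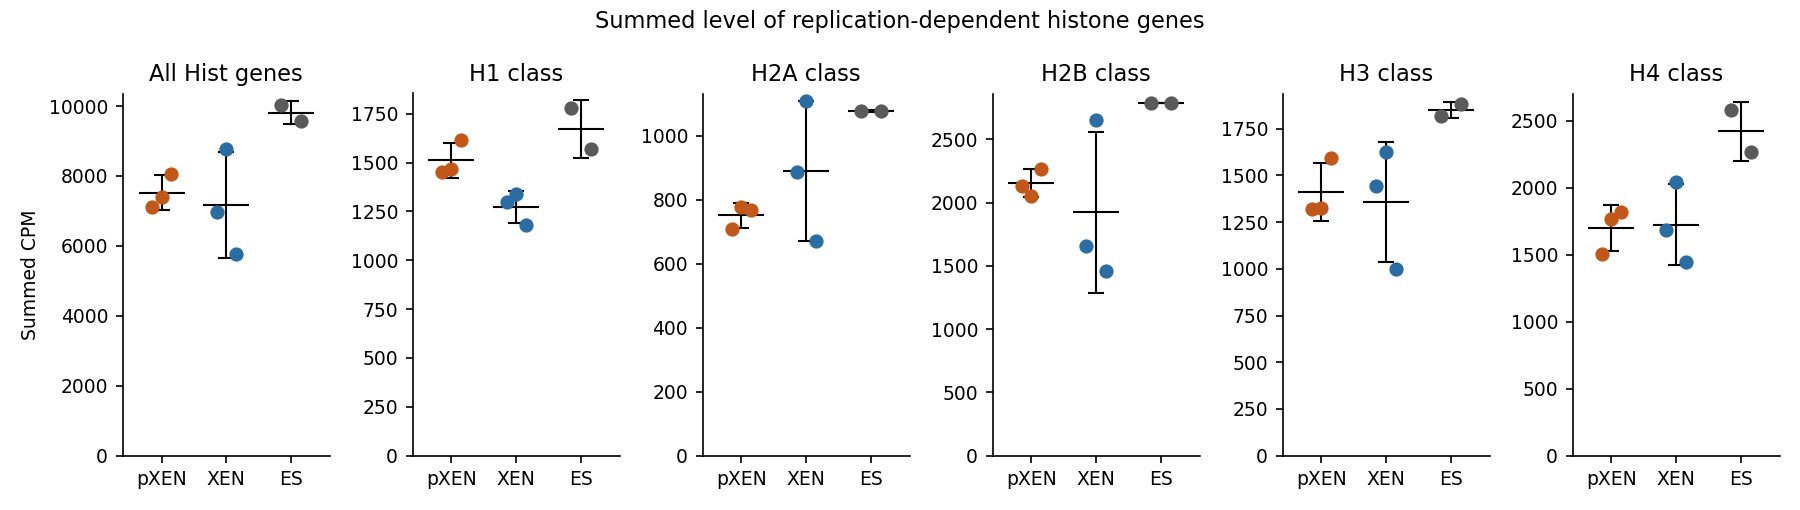
Summed CPM of all Hist genes and of each histone class (vertical axes) in pXEN, XEN and ES lines (points are lines, the horizontal bar is the mean and the whiskers 1 SD). ES lines lie at the top for H2B, H3 and H4, XEN2 is above them for H2A, and the XEN lines spread from 5760 to 8773 CPM for all Hist genes.

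H1f0, the replacement linker histone associated with differentiated and slowly dividing cells (chr15:79028212-79030504, plus strand, GRCm38.p6), was the only member called higher in all 3 comparisons. Its level was 506, 900 and 849 CPM in pXEN lines, 236, 217 and 350 CPM in XEN lines, and 44.4 and 71.3 CPM in ES lines. The groups did not overlap, and pXEN lines were highest and ES lines lowest. The log2 fold change was 1.49 for pXEN against XEN (SE 0.29, adjusted p = 0.0121), 3.70 for pXEN against ES (SE 0.37, adjusted p = 3.57e-05) and 2.21 for XEN against ES (SE 0.35, adjusted p = 0.000687), by the quasi-likelihood test of edgeR, adjusted after Benjamini and Hochberg over 10895 genes, which gave every adjusted p here. Without XEN1 the pXEN against XEN difference had an adjusted p of 0.0643.

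Hist1h1b (H1.5; chr13:21779832-21780625, minus strand) moved the other way. It stood at 97.1, 94.8 and 50.5 CPM in pXEN lines, 176, 221 and 192 CPM in XEN lines, and 449 and 421 CPM in ES lines. No line of one group overlapped another group, in the order ES, XEN, pXEN from high to low. The log2 fold changes were -1.28 for pXEN against XEN (SE 0.25, adjusted p = 0.0145), -2.43 for pXEN against ES (SE 0.28, adjusted p = 7.86e-05) and -1.15 for XEN against ES (SE 0.27, adjusted p = 0.00691). All 3 calls held under every alternative run. Hist1h1d (H1.3) had 76.3, 128 and 96.4 CPM in pXEN lines, 174, 74.8 and 213 CPM in XEN lines, and 440 and 226 CPM in ES lines. It was lower in pXEN than in ES lines (log2 fold change -1.73, SE 0.43, adjusted p = 0.0108; adjusted p = 0.124 without ES2), and all endoderm lines lay below both ES lines.

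Other linker genes rose in pXEN lines. Hist1h1c (H1.2), the most abundant linker gene per length in every group, had 737, 711 and 850 CPM in pXEN lines, 520, 432 and 422 CPM in XEN lines, and 501 and 524 CPM in ES lines. All pXEN lines exceeded every other line, with a log2 fold change of 0.74 against XEN (SE 0.17, adjusted p = 0.0341) and 0.58 against ES (SE 0.20, adjusted p = 0.0394). These calls were fragile, since the first was lost under 7 and the second under 6 of 15 alternatives. Hist1h1e (H1.4) had 358, 321 and 433 CPM in pXEN lines, 229, 282 and 219 CPM in XEN lines, and 188 and 190 CPM in ES lines. It was higher in pXEN than in ES lines (log2 fold change 0.97, SE 0.22, adjusted p = 0.00571), and the difference from XEN lines was 0.61 (SE 0.19, adjusted p = 0.126).

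Hist1h1a (H1.1) had 184, 212 and 183 CPM in pXEN lines, 198, 328 and 132 CPM in XEN lines, and 197 and 205 CPM in ES lines, and the ranges of all 3 groups overlapped. Testis-specific Hist1h1t gave 2, 4 and 2 counts in pXEN lines, 0, 0 and 1 in XEN lines, and 6 and 8 in ES lines. H1fx (H1.10) gave 1, 0 and 0 counts in pXEN lines, 1, 0 and 4 in XEN lines, and 3 and 12 in ES lines. Neither was tested, and both stood near the detection limit in these libraries.

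**Figure D2:**
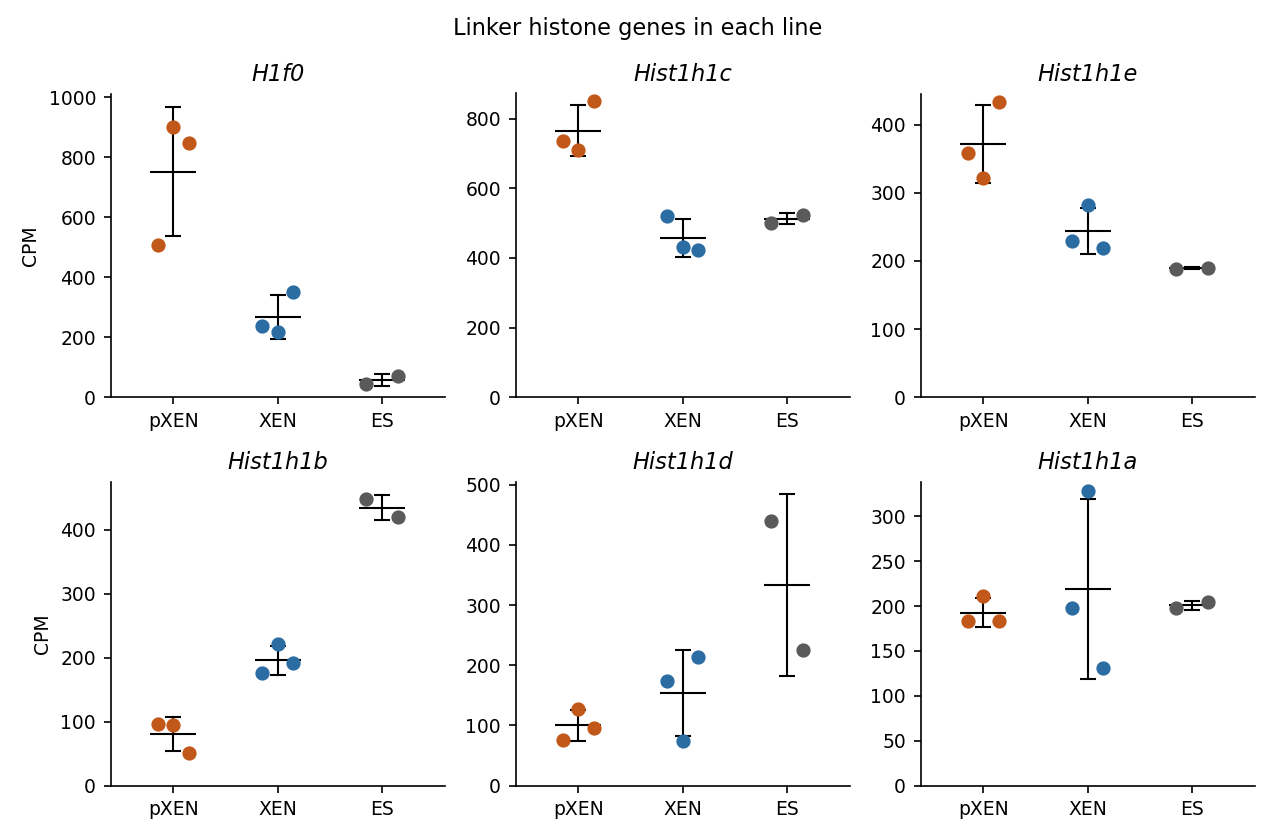
CPM (vertical axes) of 6 linker histone genes in pXEN, XEN and ES lines (points are lines, the bar is the mean and the whiskers 1 SD). H1f0 is at 506 to 900 CPM in pXEN lines and 44.4 to 71.3 CPM in ES lines, while Hist1h1b is at 50.5 to 97.1 CPM in pXEN lines and 421 to 449 CPM in ES lines.

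When levels were divided by transcript length and expressed as shares of the linker total, H1f0 made up 13.8% ± 3.31 in pXEN lines (SD, n = 3), 6.54% ± 2.09 in XEN lines (n = 3) and 1.15% ± 0.464 in ES lines (n = 2). Hist1h1b made up 4.41% ± 1.67, 13.7% ± 1.44 and 24.6% ± 0.838 of the same total in pXEN, XEN and ES lines. Hist1h1c led in all groups, with 45.0% ± 2.89 in pXEN lines, 35.1% ± 3.80 in XEN lines and 31.9% ± 3.55 in ES lines. Among the 6 tested linker genes, Hist1h1b had the smallest share in pXEN lines and H1f0 the smallest in XEN and ES lines. Hist1h1d contributed 5.48% ± 1.32 in pXEN lines, 11.2% ± 5.55 in XEN lines and 19.0% ± 7.22 in ES lines. The summed linker level per kilobase was 2164, 2354 and 2532 CPM per kilobase in pXEN lines, 1825, 1867 and 1710 in XEN lines, and 2353 and 2102 in ES lines. Shares of one total are not independent of each other, and they refer to mRNA and not to protein.

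**Figure D3:**
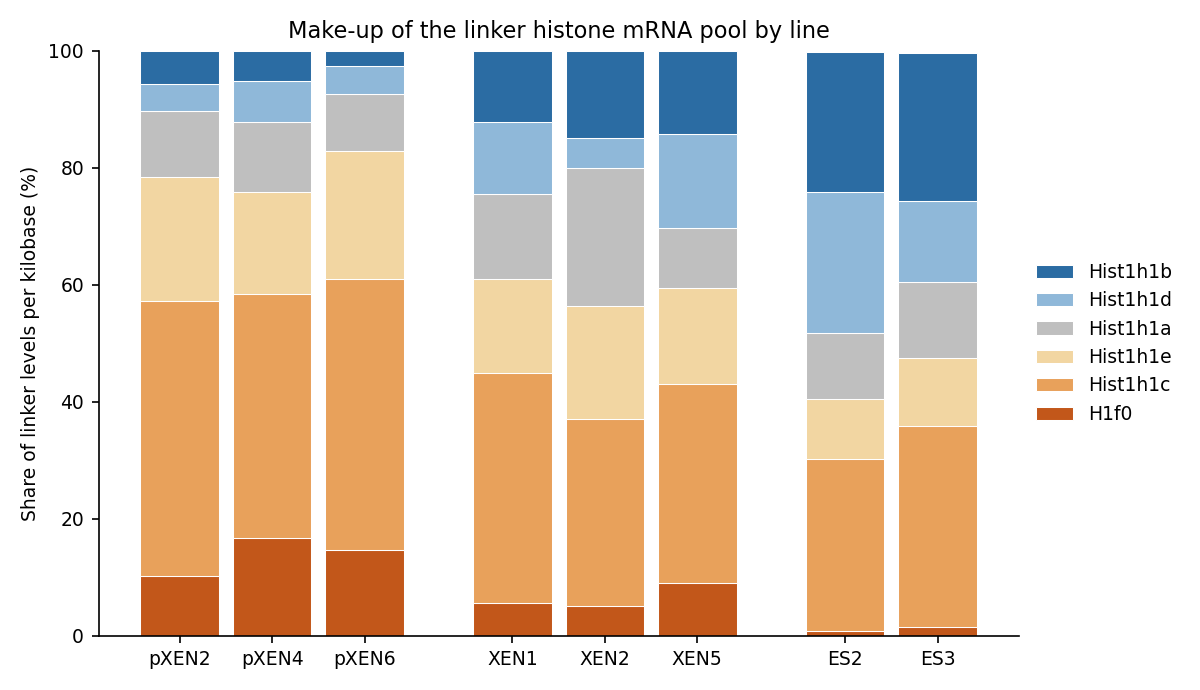
Share of each linker histone gene (colours) in the summed linker level, in CPM per kilobase, for each line (bars). The H1f0 part is 10.2% to 16.7% in pXEN lines and 0.823% to 1.48% in ES lines, and the Hist1h1b part is 2.51% to 5.65% in pXEN lines and 24.0% to 25.2% in ES lines.

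The upstream sequences of both genes are given for this contrast, as the 250 bases before the annotated start in RefSeq (GRCm38.p6), with matches on either strand in capitals to the TATA box TATAAA, to the CCAAT box and to the octamer ATTTGCAT.
H1f0, chr15:79027962-79028211, plus strand: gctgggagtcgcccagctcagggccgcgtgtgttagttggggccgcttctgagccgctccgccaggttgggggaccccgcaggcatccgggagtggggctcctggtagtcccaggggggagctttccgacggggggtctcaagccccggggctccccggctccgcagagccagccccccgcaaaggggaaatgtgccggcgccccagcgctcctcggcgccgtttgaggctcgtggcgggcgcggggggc
Hist1h1b, chr13:21780626-21780875, minus strand: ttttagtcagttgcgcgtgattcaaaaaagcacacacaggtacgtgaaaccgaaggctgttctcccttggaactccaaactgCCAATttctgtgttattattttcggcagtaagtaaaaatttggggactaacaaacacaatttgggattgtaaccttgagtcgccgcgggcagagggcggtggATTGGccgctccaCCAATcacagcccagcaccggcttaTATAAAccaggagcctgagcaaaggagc
The H1f0 window held none of these letters, and the Hist1h1b window held 1 TATAAA and 3 CCAAT matches. TATAAA was found in 29 of the 63 RefSeq promoters of Hist genes, against 12.4% of 32851 promoters of all genes, and CCAAT in 82.5% against 33.8%. The octamer was found in 22.2% of Hist promoters, against 526 of all 32851, in 7 of 18 H2A and 7 of 17 H2B promoters and in no promoter of H1, H3 or H4. No motif hits overlapped in the windows of the members. Such matches describe letters, not bound sites.

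The comparison of pXEN with XEN lines asked how 2 kinds of endoderm line under different culture differ. Most histone genes carried no call, though the share called was above that of all genes. Of 60 members tested, 2 were higher in pXEN lines (3.33%), H1f0 and Hist1h1c, where 0.918% of all genes tested were higher. Lower were 6 members (10.0%), where 3.63% of all genes were lower. In either direction 13.3% of members and 4.55% of all genes were called. The median log2 fold change over tested members was -0.06, and over all genes 0.00. Without pXEN2 or without XEN1, 3 members were lower, and DESeq2 called 6 higher and 9 lower.

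All 6 genes lower in pXEN than in XEN lines were Hist genes of the Hist1 cluster on chromosome 13. So were most members: of 60 tested, 55 were Hist genes and 47 lay in that cluster. Hist1h3d had 14.8, 13.1 and 24.4 CPM in pXEN lines, 76.8, 100.1 and 69.8 CPM in XEN lines, and 175 and 161 CPM in ES lines. It separated all 3 groups, being 4.70-fold lower in pXEN than in XEN lines (log2 fold change -2.23, SE 0.27, adjusted p = 0.00103). Hist1h2bf had 9.21, 3.99 and 14.1 CPM in pXEN lines, 37.0, 32.0 and 22.7 CPM in XEN lines, and 70.3 and 94.3 CPM in ES lines (log2 fold change for pXEN against XEN -1.74, SE 0.39, adjusted p = 0.0275). Hist1h2af followed the same order, with 5.59, 6.26 and 5.45 CPM in pXEN lines, 21.0, 20.6 and 12.2 CPM in XEN lines, and 79.4 and 68.6 CPM in ES lines (log2 fold change for pXEN against XEN -1.62, SE 0.29, adjusted p = 0.00886). Lines of the 3 groups did not overlap for any of these H3, H2B and H2A genes.

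The remaining calls were smaller. Hist1h2bn had 68.8, 71.5 and 37.3 CPM in pXEN lines and 125, 125 and 121 CPM in XEN lines (log2 fold change -1.06, SE 0.25, adjusted p = 0.0322). Hist1h3i had 71.4, 62.9 and 66.3 CPM in pXEN lines and 132, 123 and 106 CPM in XEN lines (log2 fold change -0.85, SE 0.19, adjusted p = 0.0245). Calls for Hist1h3d, Hist1h2af and Hist1h1b held under all 15 alternatives, while those for Hist1h2bn, Hist1h3i and Hist1h2bf were lost under 8, 5 and 4 of them.

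The comparisons with ES lines asked how endoderm lines differ from pluripotent ones, and more histone genes were called lower than higher in both. In pXEN lines 22 of 60 members were lower than in ES lines (36.7%), where 17.8% of all genes were lower, and 5 were higher (8.33%), where 18.2% of all genes were higher; 35.9% of all genes were called in either direction. The median log2 fold change was -0.35 over tested members and -0.03 over all genes. Lower genes included 8 of 15 tested H2B, 4 of 13 H2A, 4 of 12 H4 and 3 of 10 H3 genes, 2 of the 5 tested Hist linker genes, and H2afz. Without ES2, 14 members were lower, and 2 were higher without pXEN2, ES2 or ES3, 3 without pXEN6.

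Apart from Hist1h2ba, which had 1 count in all pXEN lines together and is described further on, the largest falls were as follows. Hist1h2af was 12.7-fold lower in pXEN than in ES lines (log2 fold change -3.67, SE 0.31, adjusted p = 1.19e-05), Hist1h3d 9.60-fold lower (-3.26, SE 0.29, adjusted p = 1.65e-05) and Hist1h2bf 9.03-fold lower (-3.17, SE 0.42, adjusted p = 0.000232). Hist3h2ba, an H2B gene of the small chromosome 11 cluster, had 1.97, 2.56 and 1.15 CPM in pXEN lines, 4.29, 6.12 and 3.43 CPM in XEN lines, and 14.4 and 26.1 CPM in ES lines. Its log2 fold change was -3.39 for pXEN against ES (SE 0.49, adjusted p = 0.000372) and -2.12 for XEN against ES (SE 0.45, adjusted p = 0.00394). Even its highest endoderm line lay below both ES lines.

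Higher in pXEN than in ES lines were H1f0, Hist1h1c, Hist1h1e, H2afx and Hist4h4. Hist4h4, the single H4 gene on chromosome 6, had 35.9, 22.5 and 28.4 CPM in pXEN lines, 16.4, 22.8 and 15.9 CPM in XEN lines, and 15.6 and 11.7 CPM in ES lines (log2 fold change for pXEN against ES 1.08, SE 0.33, adjusted p = 0.0253). It was the only H4 gene with a call in this direction, and leaving out pXEN2, ES2 or ES3 ended it, with 0.161 the highest adjusted p.

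In XEN lines 13 of 60 members were lower than in ES lines (21.7%), where 17.8% of all genes were lower, and H1f0 alone was higher (1.67%), where 20.7% of all genes were higher; 38.4% of all genes were called in either direction. The share lower was thus near that of all genes, while the median log2 fold change was -0.50 over tested members and 0.00 over all genes. Hist1h2af and Hist1h2bf were among the lower genes, with log2 fold changes of -2.05 (SE 0.29, adjusted p = 0.000343) and -1.43 (SE 0.39, adjusted p = 0.0148). Without XEN2 the count of lower members was 23, without XEN1 or XEN5 it was 8, and without ES2 or ES3 it was 7. Hist1h4j had 60.2, 53.8 and 53.4 CPM in pXEN lines, 57.3, 74.0 and 52.8 CPM in XEN lines, and 191 and 168 CPM in ES lines. All 6 endoderm lines lay below the ES lines, with log2 fold changes of -1.69 for pXEN against ES (SE 0.22, adjusted p = 0.000207) and -1.55 for XEN against ES (SE 0.22, adjusted p = 0.000387).

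Hist1h3g followed another order. It had 86.9, 66.9 and 110 CPM in pXEN lines, 45.6, 59.8 and 34.3 CPM in XEN lines, and 124 and 153 CPM in ES lines. XEN lines were lowest (log2 fold change for XEN against ES -1.57, SE 0.29, adjusted p = 0.00167), and pXEN lines lay between the other groups without a call against either (adjusted p = 0.0813 against XEN, 0.0971 against ES). The pXEN and XEN comparisons share the ES libraries, so their calls are not independent of each other.

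Most of the abundant core genes showed no call. Per length, the highest member was Hist2h2bb (H2B, chromosome 3), with 944, 705 and 1054 CPM in pXEN lines, 630, 869 and 595 CPM in XEN lines, and 890 and 811 CPM in ES lines, equal to mean levels of 1827, 1416 and 1725 CPM per kilobase. The groups overlapped. Hist1h4d, the highest H4 gene by mean CPM, averaged 737 CPM per kilobase in pXEN lines, 1114 in XEN lines and 1365 in ES lines. It was lower in pXEN than in ES lines, with 199, 372 and 317 CPM in pXEN lines and 594 and 504 CPM in ES lines (log2 fold change -0.89, SE 0.27, adjusted p = 0.0222). Without pXEN2, ES2 or ES3 that call was lost, the highest adjusted p being 0.143.

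Among the 4 most abundant genes of each core class the other differences did not pass the threshold. For pXEN against ES the log2 fold changes were 0.27 for Hist3h2a, -0.30 for Hist1h2ai, -0.42 for Hist1h2ab and -0.19 for Hist2h2ac in H2A. In H2B they were 0.08 for Hist2h2bb, -0.16 for Hist1h2bb, -0.28 for Hist1h2bg and 0.16 for Hist1h2bc. In H3 they were -0.24 for Hist1h3e, 0.01 for Hist1h3c, -0.33 for Hist1h3b and 0.04 for Hist1h3a, and in H4 0.02 for Hist1h4h, 0.01 for Hist1h4c and -0.27 for Hist1h4a. Their SEs ran from 0.21 for Hist1h4h to 0.64 for Hist1h2bg, so changes of the size seen for Hist1h4d could go uncalled in the more variable genes.

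Position was examined next, because 54 of the 68 Hist genes form the Hist1 cluster on chromosome 13, which spans 2.22 Mb and falls into 4 blocks when split at gaps over 100 kb. In the first block, chr13:21715711-21837530 (Hist1h2bl to Hist1h2br), 9 of 13 tested genes were lower in pXEN than in ES lines, with a median log2 fold change of -1.05. In the third, chr13:23531044-23764412 (Hist1h4h to Hist1h1a), 8 of 28 tested genes were lower and 2 higher, with a median of -0.31. The second block held 5 genes, 2 of them lower. Over the 60 tested members 36.7% were lower and 8.33% higher in this comparison, and over all genes 17.8% were lower and 18.2% higher. The 8 genes that close the third block, from Hist1h3c to Hist1h1a, carried no call in pXEN against ES or pXEN against XEN.

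Some neighbours were low together in pXEN against XEN lines, and others were not. Hist1h2af, with a log2 fold change of -1.62, lay between Hist1h4h with 0.40 and Hist1h3g with 0.92. In a stretch of 33.3 kb of the first block, Hist1h4k and the next 4 genes all had negative log2 fold changes, among them -1.26 (Hist1h2ak), -1.06 (Hist1h2bn), -1.28 (Hist1h1b) and -0.85 (Hist1h3i), of which the last 3 were called. In the third block Hist1h2bf, Hist1h2ad and Hist1h3d, within 2.51 kb, had -1.74, -1.21 and -2.23, while the flanking genes Hist1h2bg and Hist1h4d had 0.28 and -0.59. These stretches were picked after their values were seen and carry no test.

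**Figure D4:**
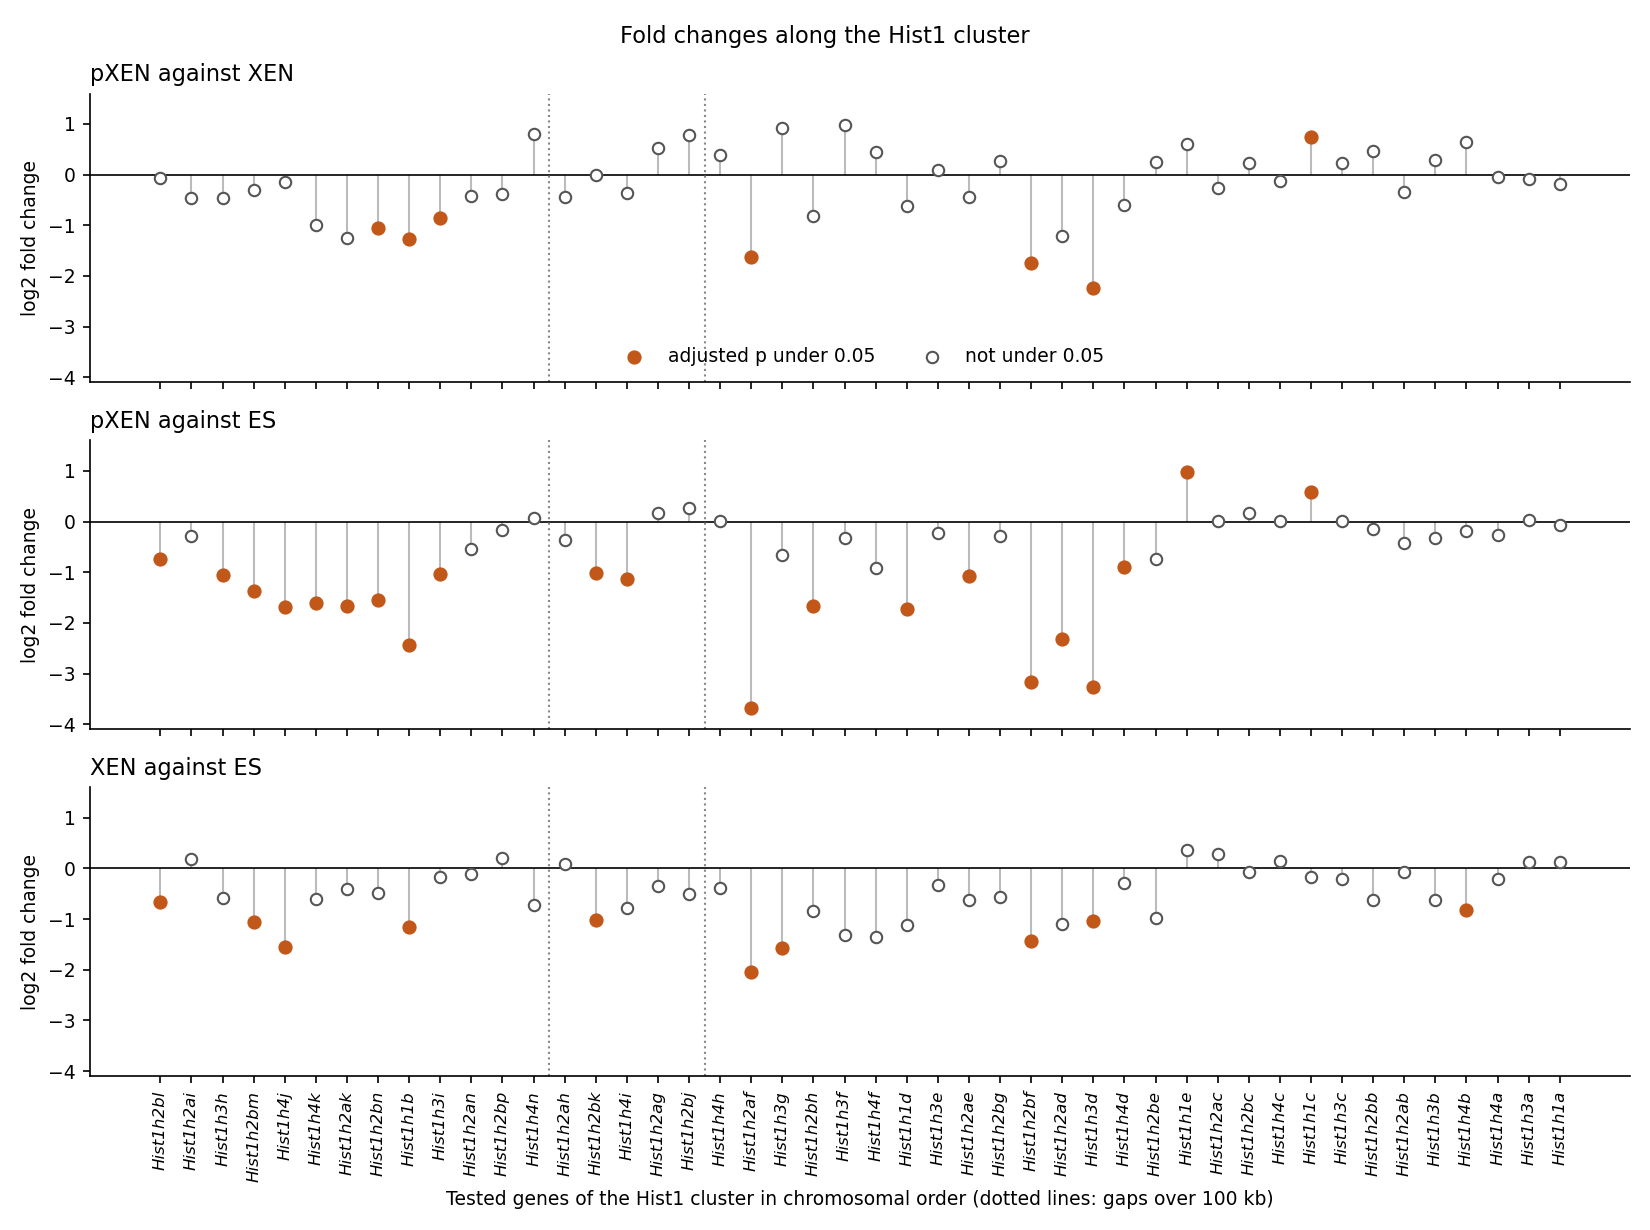
Log2 fold change (vertical axes) of 46 of the 47 tested Hist1 genes, in chromosomal order (horizontal axis), for pXEN against XEN, pXEN against ES and XEN against ES. Filled points have an adjusted p under 0.05 and dotted lines mark gaps over 100 kb. Filled points reach -2.23 in the upper panel and -3.67 in the middle panel, and the last 8 genes at the right end are all open in both. Hist1h2ba is left out because pXEN lines held 1 count, and its log2 fold change for pXEN against ES, which was called, was -7.25.

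Divergent H2A and H2B genes share the short stretch between their starts. Hist1h2bf and Hist1h2ad are 173 bases apart, and both were lower in pXEN than in ES lines, by -3.17 and -2.31 on the log2 scale (adjusted p = 0.000232 and 0.0302), the call of Hist1h2ad being lost under 5 of 15 alternatives. Hist1h2ak and Hist1h2bn are 163 bases apart and had -1.66 and -1.55 (adjusted p = 0.00465 and 0.00117). In other pairs only one partner was called. Hist1h2bk had -1.02 (adjusted p = 0.0338) and its partner Hist1h2ah, 177 bases away, -0.36 without a call. The call of Hist1h2bk was lost under 4 of 15 alternatives (adjusted p up to 0.144). Likewise Hist1h2bl had -0.73 (adjusted p = 0.0287) beside -0.30 for Hist1h2ai, and Hist1h2ae -1.08 (adjusted p = 0.0392) beside -0.28 for Hist1h2bg. Neither partner was called in the pairs Hist1h2an and Hist1h2bp, Hist1h2ag and Hist1h2bj, and Hist1h2ac and Hist1h2bc. The window upstream of Hist1h2bf is printed with the same motifs in capitals, together with that of Hist1h3d from the same stretch.
Hist1h2bf, chr13:23574208-23574457, minus strand: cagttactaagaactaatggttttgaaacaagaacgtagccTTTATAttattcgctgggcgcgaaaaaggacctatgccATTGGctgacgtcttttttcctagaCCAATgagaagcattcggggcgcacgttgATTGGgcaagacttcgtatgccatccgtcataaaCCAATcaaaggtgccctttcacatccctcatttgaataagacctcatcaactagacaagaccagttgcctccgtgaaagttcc
Hist1h3d, chr13:23575513-23575762, plus strand: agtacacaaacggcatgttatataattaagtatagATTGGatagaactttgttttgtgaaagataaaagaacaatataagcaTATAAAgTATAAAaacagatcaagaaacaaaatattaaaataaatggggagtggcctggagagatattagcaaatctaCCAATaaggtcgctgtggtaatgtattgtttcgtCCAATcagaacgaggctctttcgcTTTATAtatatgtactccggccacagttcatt
The Hist1h2bf window held 1 TATAAA and 4 CCAAT matches, and the Hist1h3d window 3 of each. Neither held the octamer. From chr13:23574381 upward the Hist1h2bf window lies within Hist1h2ad, and its TATAAA match falls in that part, on the opposite strand.

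XEN5 stood apart at part of this cluster. Hist1h3f had 121, 147 and 140 CPM in pXEN lines, 68.2, 129 and 8.72 CPM in XEN1, XEN2 and XEN5, and 121 and 223 CPM in ES lines. Likewise Hist1h4f had 84.6, 148 and 25.6 CPM, Hist1h2bg 102, 287 and 49.4 CPM, and Hist1h2be 51.0, 114 and 19.3 CPM in XEN1, XEN2 and XEN5. In all, 6 of 55 tested Hist genes (10.9%) were in XEN5 at under 50% of both other XEN lines, against 277 of all 10895 tested genes (2.54%). Their neighbours Hist1h1d and Hist1h3e were not low in XEN5, at 213 and 288 CPM. None of these 4 genes was called in XEN against ES, where without XEN2 Hist1h2bg, Hist1h2be and Hist1h4f were.

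Hist1h2ba, the testis-expressed H2B gene (chr13:23933725-23934156, minus strand), was the most line-dependent member. It gave 0, 1 and 0 counts in pXEN2, pXEN4 and pXEN6, 87, 1 and 142 counts in XEN1, XEN2 and XEN5, and 90 and 14 counts in ES2 and ES3. The pXEN lines were thus near 0, while XEN2 differed from the other XEN lines by as much as pXEN lines did. The ratio of pXEN to ES levels was 0.00479 (exact 95% counting interval 0.000120 to 0.0273), and that of pXEN to XEN 0.00431 (0.000109 to 0.0243), covering counting error only. The fitted difference from ES passed the threshold (adjusted p = 0.0392) but was lost under 7 of 15 alternatives, and that from XEN did not (adjusted p = 0.128). Its divergent partner Hist1h2aa, 280 bases away, gave 0, 0 and 1 counts in pXEN lines, 0, 2 and 0 in XEN lines, and 8 and 28 in ES lines, so the XEN lines high in Hist1h2ba held no Hist1h2aa counts. The window upstream of Hist1h2ba is shown with the motifs in capitals.
Hist1h2ba, chr13:23934157-23934406, minus strand: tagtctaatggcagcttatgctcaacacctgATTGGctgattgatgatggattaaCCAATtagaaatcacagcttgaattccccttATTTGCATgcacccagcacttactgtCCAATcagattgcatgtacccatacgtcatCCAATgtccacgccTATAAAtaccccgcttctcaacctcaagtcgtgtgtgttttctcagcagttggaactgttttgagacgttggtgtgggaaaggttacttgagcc
It held 1 TATAAA, 4 CCAAT and 1 octamer match.

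Replacement core histones behaved individually. H2afz, which encodes the H2A.Z variant found at promoters, had 393, 352 and 347 CPM in pXEN lines, 419, 350 and 376 CPM in XEN lines, and 925 and 550 CPM in ES lines. All endoderm lines lay below both ES lines, with log2 fold changes of -1.02 for pXEN against ES (SE 0.23, adjusted p = 0.00565) and -0.95 for XEN against ES (SE 0.23, adjusted p = 0.00831). Without ES2 these had adjusted p of 0.119 and 0.160. Of the windows of 101 bases in an annotated H2afz transcript, 68.3% also occur in transcripts of other genes, so its count is uncertain.

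H2afx, which encodes the variant phosphorylated at DNA breaks, had 472, 573 and 540 CPM in pXEN lines, 376, 371 and 280 CPM in XEN lines, and 361 and 336 CPM in ES lines. Every pXEN line was above all other lines (log2 fold change against ES 0.60, SE 0.21, adjusted p = 0.0464; against XEN 0.62, SE 0.19, adjusted p = 0.101), and the call against ES was lost under 6 of 15 alternatives. H3f3b, one of the genes for H3.3, had 563, 576 and 528 CPM in pXEN lines, 398, 442 and 595 CPM in XEN lines, and 405 and 460 CPM in ES lines. Its log2 fold change was 0.36 for pXEN against ES (95% interval -0.07 to 0.79) and 0.22 for pXEN against XEN (-0.16 to 0.60). H2afy, which encodes macroH2A1, had 18.1, 20.8 and 18.7 CPM in pXEN lines, 51.8, 23.1 and 25.1 CPM in XEN lines, and 29.2 and 32.7 CPM in ES lines. No pXEN line reached the lowest line of the other groups, but neither difference passed the threshold (adjusted p = 0.254 against XEN, 0.152 against ES). No call was made for H2afz between pXEN and XEN lines (log2 fold change -0.07, 95% interval -0.48 to 0.35), nor between XEN and ES lines for H2afx, H3f3b or H2afy (adjusted p = 0.933, 0.627 and 0.851).

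**Figure D5:**
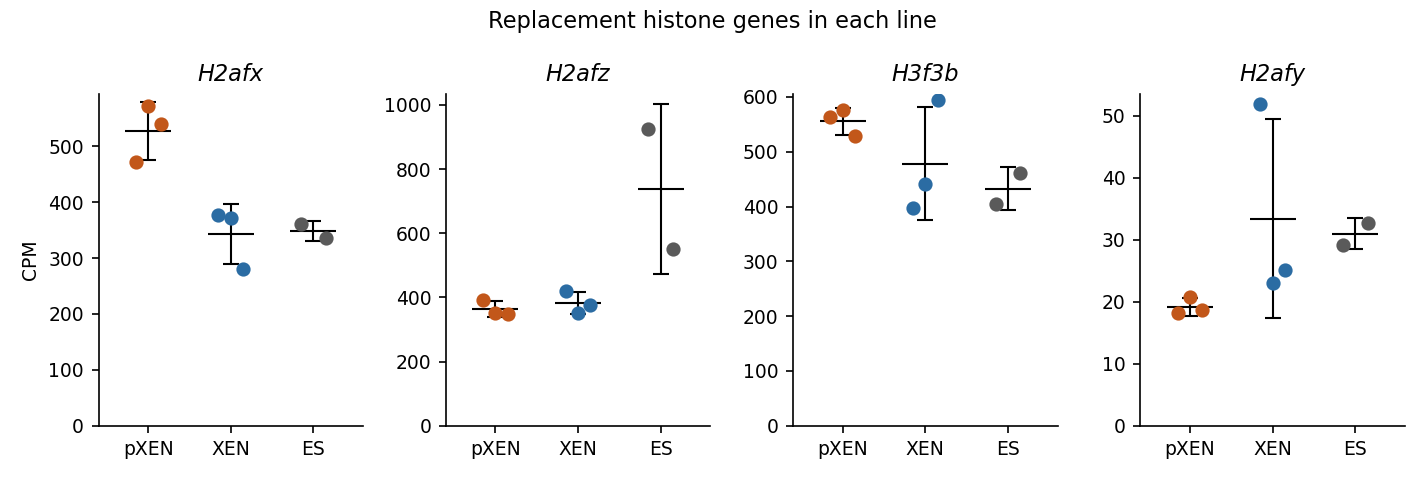
CPM (vertical axes) of 4 replacement histone genes in pXEN, XEN and ES lines (points are lines, the bar is the mean and the whiskers 1 SD). H2afx is highest in pXEN lines at 472 to 573 CPM, and H2afz is highest in ES lines at 550 to 925 CPM.

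Replacement histones outside the set were read beside these. Of 11 such genes in the tables, 5 were tested. H3f3a, the other H3.3 gene, was lower in both endoderm groups than in ES lines, with 122, 160 and 144 CPM in pXEN lines, 198, 163 and 155 CPM in XEN lines, and 389 and 248 CPM in ES lines (adjusted p = 0.00354 and 0.0148). H2afv, which encodes a second H2A.Z form, was at 5.26, 7.12 and 3.44 CPM in pXEN lines and 16.4 and 10.9 CPM in ES lines (adjusted p = 0.0338). Both H3.3 genes encode the same protein, and their log2 fold changes for pXEN against ES were 0.36 for H3f3b and -1.17 for H3f3a.

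Genes encoding factors that process histone mRNA or switch on its transcription were read beside the members, and 17.8% of all genes were lower and 18.2% (pXEN) or 20.7% (XEN) higher than in ES lines. Of 24 such genes tested, none was called between pXEN and XEN lines, 1 rose and 3 fell in pXEN lines relative to ES lines, and 4 fell in XEN lines relative to ES lines. The median log2 fold change was -0.30 for pXEN against ES and -0.27 for XEN against ES, beside -0.03 and 0.00 over all genes. Slbp, which encodes the stem-loop binding protein, had 32.6, 32.5 and 24.7 CPM in pXEN lines, 26.1, 46.7 and 24.3 CPM in XEN lines, and 41.1 and 22.6 CPM in ES lines, and these ranges overlapped. Npat, the coactivator of histone gene transcription, averaged 121 CPM in pXEN lines, 98.8 CPM in XEN lines and 107 CPM in ES lines, without a call. Ccne1, the cyclin E gene whose product with Cdk2 phosphorylates Npat, was lower in both (log2 fold change -2.08, SE 0.48, adjusted p = 0.00755 for pXEN against ES, and -2.64, SE 0.49, adjusted p = 0.00255 for XEN against ES), at 29.9, 8.54 and 37.3 CPM in pXEN lines, 14.0, 22.8 and 14.3 CPM in XEN lines, and 122 and 91.6 CPM in ES lines. Cdk2 was higher in pXEN than in ES lines (log2 fold change 0.96, SE 0.25, adjusted p = 0.0119). Zfp473, which encodes a zinc finger protein of the histone pre-mRNA complex, and Srrt were lower in both than in ES lines, and Coil, which encodes the Cajal body protein coilin, was lower in XEN lines.

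Some histone chaperone and S phase genes were lower too. Of 29 chaperone genes, 8 were lower and 1 higher in pXEN than in ES lines (median log2 fold change -0.50, against -0.03 over all genes), and 11 were lower and 1 higher in XEN than in ES lines (median -0.52, against 0.00). Over all genes 17.8% were lower in each comparison, and 18.2% and 20.7% higher. Atrx, which with Daxx deposits H3.3 in heterochromatin, had 34.9, 25.9 and 23.5 CPM in pXEN lines, 37.0, 32.5 and 38.3 CPM in XEN lines, and 160 and 222 CPM in ES lines, with log2 fold changes of -2.76 for pXEN against ES (SE 0.25, adjusted p = 1.80e-05) and -2.41 for XEN against ES (SE 0.25, adjusted p = 4.73e-05). Hat1, which acetylates new H4, had 155, 127 and 174 CPM in pXEN lines, 76.4, 174 and 131 CPM in XEN lines, and 392 and 367 CPM in ES lines. Ubn1, a subunit of the HIRA complex, was the higher gene in both comparisons, at 82.3, 133 and 91.0 CPM in pXEN lines, 118, 128 and 108 CPM in XEN lines, and 32.9 and 25.7 CPM in ES lines. Npm1 and Nap1l1 were also among the genes with the smallest p that were lower in both.

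Of 26 S phase genes, 9 were lower in pXEN lines and 10 in XEN lines, each against ES lines, none was higher (17.8% of all genes were lower in each, and 18.2% and 20.7% higher), and none was called between pXEN and XEN lines. The median log2 fold changes were -0.43 for pXEN against ES and -0.54 for XEN against ES, beside -0.03 and 0.00 over all genes. Pola1, the catalytic subunit of DNA polymerase alpha, had 10.9, 9.97 and 8.04 CPM in pXEN lines, 9.35, 18.9 and 11.6 CPM in XEN lines, and 44.4 and 53.0 CPM in ES lines. Rbl1, Pole, Mcm5, Mcm6 and Cdt1 were lower in both endoderm groups as well. Some genes of the list had higher means in both endoderm groups than in ES lines, without a call. Ccna2 averaged 469, 370 and 327 CPM and Cdc6 143, 115 and 80.9 CPM in pXEN, XEN and ES lines. The 26 S phase genes summed to 2491 to 3040 CPM in pXEN lines, 2059 to 2890 CPM in XEN lines and 3163 to 3707 CPM in ES lines. Like the Hist sum, this sum was higher in both ES lines than in every endoderm line. Within the pXEN group the 2 sums ranked lines differently, as pXEN2 had the highest S phase sum and the lowest Hist sum. The part of S phase in the histone differences was not tested. Of 10835 genes searched outside the set, the 5 whose log2(CPM + 1) followed the Hist sum most closely were Nsl1, Dact2, Pold1, Spice1 and Tomm40. Over the 8 lines their Pearson's r was 0.982, 0.977, 0.975, 0.974 and 0.973. These are the highest values of a wide search over few lines, which share libraries with the sum, and they carry no test.

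The remaining 15 tested members are Hist1h2bm, Hist1h2bh, Hist1h3h, Hist1h4i, Hist1h2ae, Hist1h4b, Hist2h2ab, Hist1h2an, Hist1h2bp, Hist1h4n, Hist1h2ag, Hist1h2bj, Hist1h2ac, Hist2h4 and Hist2h3b. Hist1h2bm had 92.8, 89.1 and 71.2 CPM in pXEN lines, 73.3, 156 and 84.0 CPM in XEN lines, and 237 and 198 CPM in ES lines (log2 fold change for pXEN against ES -1.37, SE 0.31, adjusted p = 0.00516; for XEN against ES -1.06, SE 0.31, adjusted p = 0.0190). Hist1h2bh had 60.2, 52.4 and 25.8 CPM in pXEN lines, 78.3, 92.3 and 71.9 CPM in XEN lines, and 165 and 126 CPM in ES lines (log2 fold change for pXEN against ES -1.66, SE 0.32, adjusted p = 0.00213). Every pXEN line lay below both ES lines for both H2B genes. The log2 fold change for pXEN against ES was -1.05 for Hist1h3h (adjusted p = 0.00571), -1.14 for Hist1h4i (adjusted p = 0.0202) and -1.08 for Hist1h2ae (adjusted p = 0.0392), all called lower. For XEN against ES it was -0.82 for Hist1h4b (adjusted p = 0.0348) and -1.34 for Hist2h2ab (adjusted p = 0.0262), also called lower. Without ES2 all 5 of these calls were lost, and the call of Hist1h2bm for XEN against ES was lost under 4 of 15 alternatives. The other 8 members, of H2A, H2B, H3 and H4, carried no call in any comparison.

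Of the 14 untested members, 9 had at most 1 count over all 8 lines: Hist1h2bq, Hist1h2br, Hist1h2ao, Hist1h2ap, Hist2h3c1, Hist2h3c2, Hist2h2aa1 and Hist2h2aa2 had 0, and Hist1h4m had 1. In their annotated transcripts 32.9% to 100% of 101-base windows (median 92.6%) recur in transcripts of other genes, against a median of 28.1% in the other 59 Hist genes. Reads that fit several places were counted as a class of their own, 7.84% to 9.65% of reads per line. Whether sharing bears on the 0 counts was not tested: Hist2h3c1, with 32.9% of its windows shared, had 0 counts, while Hist1h3h, with 92.0% shared, had 2385. Hist2h2be and the pseudogene Hist3h2bb-ps had 0 to 11 and 3 to 17 counts per line.

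Sharing also touches some of the called genes. The share of windows found elsewhere was 0.00% for H1f0 and Hist1h1b, 2.90% for Hist1h1e and 20.4% for Hist1h3d, but 45.7% for Hist1h2bf, 65.2% for Hist1h2af, 51.2% for Hist1h2bn and 68.2% for Hist1h3i. Counts of these last 4 genes are uncertain to that extent. The same holds for other genes called in pXEN against ES, among them Hist1h3h (92.0%), Hist1h2bk (70.7%), Hist1h4k (64.2%), Hist1h2ad (63.6%) and Hist1h2bl (61.6%).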

How the data were processed

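RNA of 8 mouse lines was sequenced as directional libraries after removal of ribosomal RNA, per the labels' protocols; 4 rat lines were not analysed here. The authors deposited raw read counts per gene for each line, in 3 strand columns with classes of unassigned reads; the submitters' processing notes name CASAVA 1.8.2, Trimmomatic 0.33, STAR 2.5.1, DESeq2 and mm10. Which gene models were counted is not stated in the labels. Reverse-strand counts were used, which held 98.9% to 99.3% of stranded gene counts. Classes of unassigned reads (73.4% to 78.3% of reads) stayed out of library sizes and tests.

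Genes passing filterByExpr (minimum count 10) were scaled with TMM and tested in one fit of 3 groups with edgeR 4.0.16 (R 4.3.3) by its quasi-likelihood test, with Benjamini-Hochberg adjustment over all genes and a threshold of 0.05. SEs are the log2 fold change over the square root of F, and intervals use a confidence level of 95%. Intervals of log2 fold changes take a normal approximation, so they are narrower than the F distribution of the test would give. The procedure was tested on simulated data. Alternatives were upper-quartile scaling, DESeq2 1.42.0, no filter, unstranded counts, Rn45s left out, histone genes left out of scaling, a fit of the 2 groups compared, and each line left out. Sequences came from RefSeq (GRCm38.p6) and GENCODE vM21.

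Members and lists were chosen with earlier results of these data known. Genes were named by rule: the 6 given by symbol, the 4 of highest mean CPM in each class, up to 5 called genes with the largest changes in each direction without overlap of groups, members of counts of 5 or fewer, and up to 4 genes of each list with the smallest p. The stretches of neighbouring genes, the XEN5 genes and the divergent pairs were chosen after their values were seen.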

Additional observations from a re-analysis of the deposited data

How the results depend on the processing

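No paired analysis was possible because the line numbers of the groups compared share only number 2, and each number names an independently derived line. Called directions reversed under no alternative run. Between pXEN and XEN lines, 2 members were higher in the fit reported, 6 with DESeq2 and 1 with only both groups in the fit. Leaving out 1 line at a time gave 1 to 3 higher and 3 to 7 lower members for pXEN against XEN, 2 to 5 higher and 14 to 22 lower for pXEN against ES, and 1 higher and 7 to 23 lower for XEN against ES. Upper-quartile scaling gave 3 higher members for pXEN against ES, and a log2 ratio of summed Hist CPM of -0.49, against -0.38 with TMM; it moved the median of all genes to -0.13 for pXEN against ES and -0.11 for XEN against ES, and the members' median less that of all genes was -0.32 and -0.50 under both scalings. Without single lines the log2 ratio of Hist sums ran from -0.07 to 0.24 for pXEN against XEN, -0.44 to -0.34 for pXEN against ES and -0.62 to -0.32 for XEN against ES, and that of the 6 members named by symbol from 0.49 to 0.65, 0.34 to 0.62 and -0.23 to 0.05. The cause of these shifts was not tested. With 1 ES line left out, the remaining one is assumed to vary like the other groups. Members with few counts are measured with little precision, and 14 members did not pass the filter and were not tested. The parts of depth and of shared sequence in their low counts were not tested.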
